A study of Mus musculus with 88 samples.

Results

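The 15 libraries described here are poly(A) RNA-seq libraries of injured mouse cortex, each from 1 animal killed 72 h after a controlled cortical impact, a surgical model of traumatic brain injury. They were chosen as all ipsilateral 72 h libraries of the series, PM1I included and LF3I left out, and make up 15 of the 88 libraries from 44 animals. No treatment groups were contrasted in expression level. The question was how far injured punches of equal age differ from animal to animal, which genes differ most, and which rise and fall together. The mice were C57BL/6 (C57BL/6J as purchased) of both sexes, 7 weeks old on arrival and 8 to 9 weeks old at impact. Under isoflurane, a window of 3 mm was cut in the skull above the right somatosensory cortex. The impact came from a 2 mm tip driven to a depth of 1 mm, and buprenorphine and saline followed. After perfusion, a 4 mm punch centred on the injury was taken, together with the matching punch of the opposite hemisphere. The wider series also holds punches from uninjured mice and from 24 h after impact. No sham-operated group enters the comparisons below.

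The labels place 5 of the 15 libraries in batch B (LM2I, PF1I, PF2I, PM1I, PM2I) and 10 in batch C (SF1I, SF2I, SF3I, SM1I, SM2I, TF1I, TF2I, TF3I, TM1I, TM2I). They do not say what a batch is. Levels were taken as log2 CPM (reads of a gene per 1000000 reads of its library, after scaling between libraries). For spread, list scores and correlations they were therefore centred on the mean of their own batch, and slopes held batch as a term. Levels printed in CPM, and counts of genes highest or lowest in a library, were not centred and can also carry differences between batches. Contralateral CPM came from a joint scaling of both sides. The Xist and Ddx3y values in this paragraph were not scaled. Library totals ran from 15140000 to 24730000 counts, with a median of 16040000. Mitochondrial genes took between 2.82% and 3.76% of counts, against 10.48% in LF3I, which held 10600000 counts. The 2 most similar libraries differed by a chi-square of 7.66 per gene, well above sampling noise, so none was a copy of another. In 2 animals the sex-linked genes of the 2 punches did not match each other. PF1I is labelled female and held 0.113 CPM of the X-inactivation RNA Xist and 60.2 CPM of the Y-linked helicase gene Ddx3y, whereas the contralateral library of that animal held 485 CPM of Xist. PM1I is titled female although its animal's other library is titled male; PM1I held 489 CPM of Xist and no Ddx3y read, and the contralateral library held 0.184 and 56.3 CPM. The punches of animals PF1 and PM1 can thus not be taken as matched pairs, and counts are given without both where these change.

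An impact to the cortex kills neurons and tears vessels, and the wound is filled in sequence by resident microglia, blood-borne macrophages and dividing cells, and then by fibroblasts that lay down collagen. A bulk punch sums RNA over all of these cells. The choroid plexus, the epithelium that makes cerebrospinal fluid, lies in the ventricles beneath the cortex and is not a cortical tissue. In such bulk data, fewer cells of a type and less RNA per cell cannot be told apart, and this holds for every level below.

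Of 54532 genes in the table, 17697 had enough counts to be tested. The standard deviation (SD) between animals within a batch had a median of 0.22 log2 CPM, with quartiles of 0.13 and 0.36. An SD of 0.5 or more was found for 1997 genes (11.3%). Among 13264 genes with a mean of at least 2 log2 CPM, 43 had an SD of 1 or more. Without SF1I, SF2I and SF3I, which stand apart as described below, that number was 34, and 16 of the 20 most variable genes were shared. The 20 most variable genes came from a few unlike sources. Xist, which is made in female cells only, had an SD of 5.85 over punches of both sexes. Ttr and Kl are choroid plexus genes, Pf4 is a macrophage and platelet chemokine, and Npas4 and Fosb are transcription factors switched on by neuronal firing. Fibcd1, a gene of hippocampal pyramidal neurons, had an SD of 1.65. Thbs4, which encodes a thrombospondin, had 1.66. Slc6a5, the glycine transporter of inhibitory neurons of the hindbrain and spinal cord, had 1.51, and the neuropeptide gene Gal had 1.32. The remaining genes were Srp54b, Lrrc10b, Crabp2, Fndc9, Cdhr1, Gapdh, Car12, Lct, Ankrd63 and C1ql2. Srp54b and Gapdh have near-identical copies in the genome, so their values are uncertain.

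**Figure D1:**
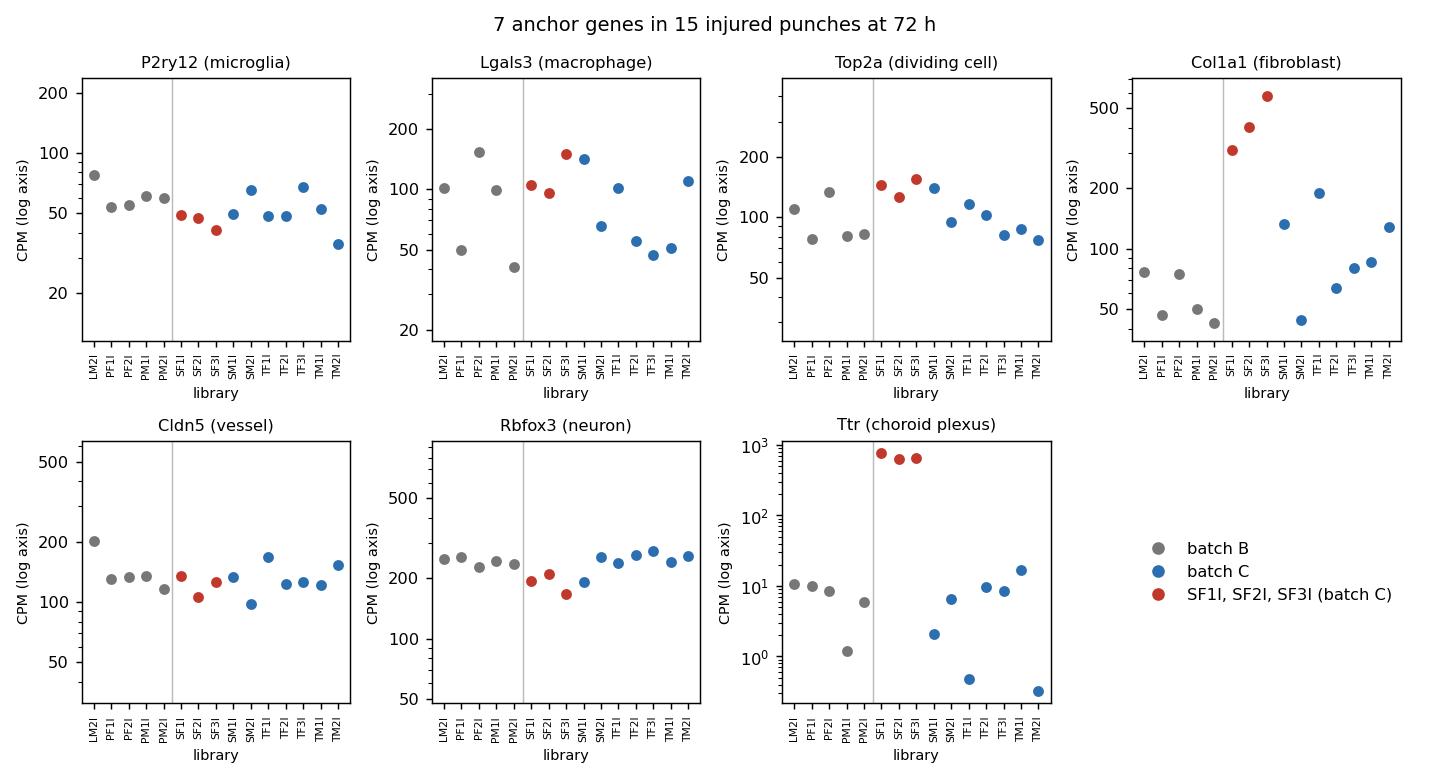
CPM (log axis) of 7 anchor genes in each of the 15 libraries, grey for batch B, blue for batch C and red for SF1I, SF2I and SF3I; each point is 1 library. Ttr lies at 627 to 768 CPM in the red libraries and at 0.32 to 17.1 in all others, Col1a1 at 311 to 578 against 42.5 to 189, whereas Rbfox3 spans only 168 to 274.

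The spread was not shared evenly by cell-type lists. The lists with the lowest median SD were those of oligodendrocyte precursors (0.22, with 0 of 12 members at 0.5 or more), mural cells (0.23, 3 of 12), homeostatic astrocytes (0.25, 0 of 12) and homeostatic microglia (0.25, 0 of 14). Vessel endothelium (0.25, 0 of 16) and neurons (0.28, 1 of 18) were close to them. Activated microglia and phagocytes had a median of 0.40 (4 of 18), proliferation 0.37 (1 of 20) and myelin 0.46 (2 of 12). The wide lists were those of infiltrating macrophages (0.74, 12 of 16), fibroblasts and matrix (0.72, 11 of 16), meninges (0.71, 8 of 12), activity-dependent genes (0.97, 11 of 12), red cells (0.89, 5 of 5) and neutrophils (1.09, 8 of 9). The median over all genes tested was 0.22. In the choroid plexus and ependyma list, 11 of 14 members had enough counts, and all 11 exceeded 0.5 with a median of 1.51. Without SF1I, SF2I and SF3I only 9 choroid and 7 neutrophil genes had enough counts. The other members tested passed the filter only with these libraries, so their wide SD is partly set by how they were admitted. Many members of the choroid, neutrophil and lymphocyte lists are near the detection limit.

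**Figure D2:**
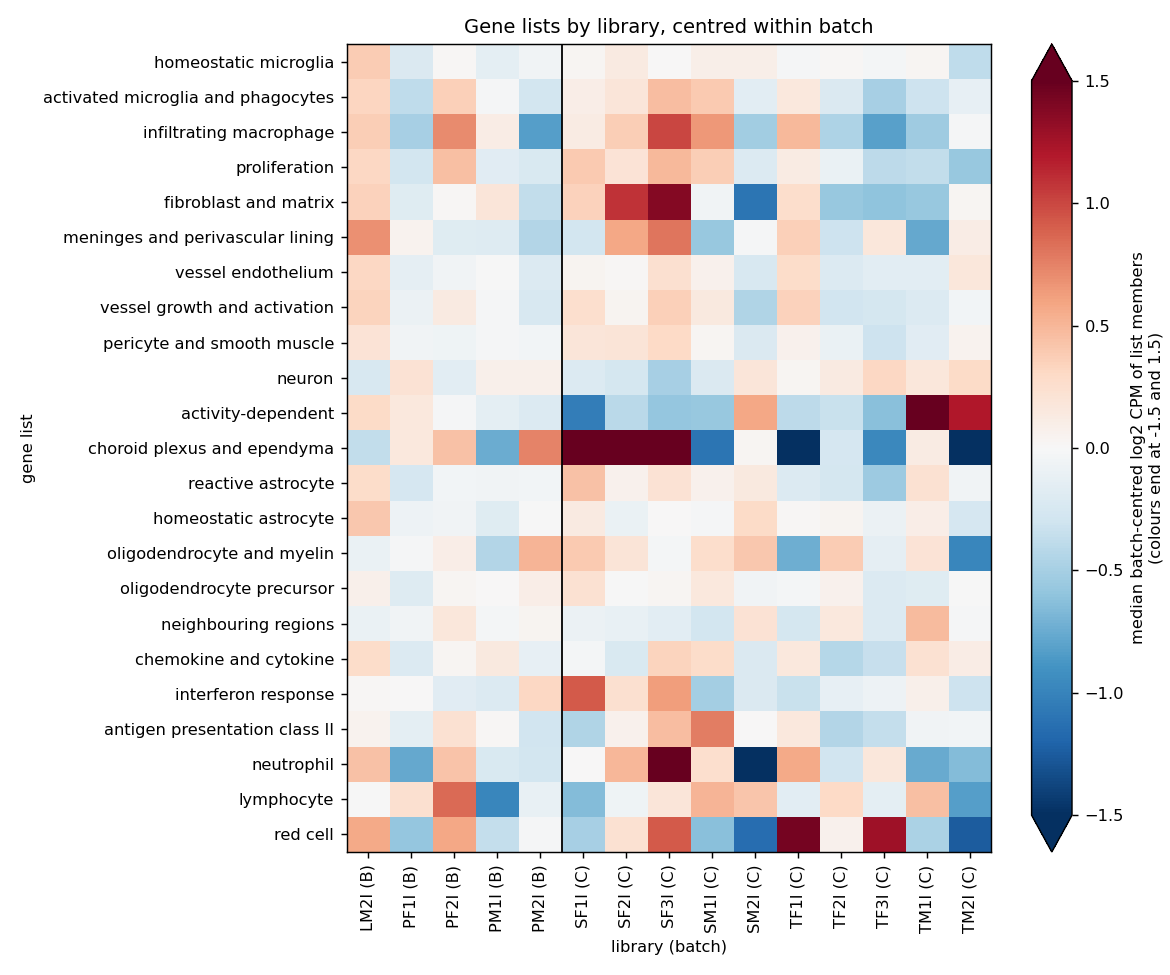
Median batch-centred log2 CPM of the members of 23 gene lists (rows) in each library (columns, batch in brackets); red is above and blue below the batch mean, and colours end at -1.5 and 1.5. SF3I is high for macrophage (1.00), fibroblast (1.38) and neutrophil (1.67) genes and low for neuron genes (-0.50), TM1I is high for activity-dependent genes (2.46), and TM2I is low for myelin (-0.98).

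Choroid plexus genes separated 3 libraries from the other 12. Ttr, the thyroid hormone carrier made in bulk by choroid epithelium, stood at 768 CPM in SF1I, 627 in SF2I and 658 in SF3I. In the other libraries it lay between 0.32 and 17.1 CPM, with a median of 7.49, so the groups of values did not overlap. In the contralateral punches of all 15 animals Ttr lay between 0.198 and 2.74 CPM, and those of SF1, SF2 and SF3 held 0.538, 0.581 and 0.285 CPM. The 3 animals are labelled female and belong to batch C. The other females of that batch, TF1I, TF2I and TF3I, had 0.474, 9.81 and 8.37 CPM.

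Other genes of the same epithelium followed this pattern. Kl, the gene of the hormone co-receptor klotho, reached 41.6, 32.9 and 24.7 CPM in SF1I, SF2I and SF3I against at most 9 CPM elsewhere. Folr1, the folate receptor that moves folate into cerebrospinal fluid, reached 6.72, 6.6 and 7.54 CPM against at most 0.851. Clic6, a chloride channel gene, reached 22.4 to 27.9 CPM against at most 5.47. The transporter gene Slc4a5 had enough reads in too few libraries to be tested, with 140, 211 and 219 reads in the 3 libraries and at most 11 in any other. Kcnj13, a potassium channel of the same cells, gave 47, 52 and 46 reads against at most 9, and the junction gene Cldn2 gave 96, 75 and 72 against at most 17. Otx2, a transcription factor gene of this epithelium, differed among the 3: 3.51 CPM in SF1I, 9.74 in SF2I and 18.6 in SF3I, against at most 1.12 elsewhere. The genes of ciliated ependymal cells (Foxj1, Ccdc153, Tmem212, Enkur) did not set the 3 libraries apart.

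Among the genes of highest SD, Cdhr1 and Ddc, which are not on the choroid list, were high in only 2 of the 3 libraries. Cdhr1 stood at 45.7 CPM in SF2I and 70.8 in SF3I, but at 7.56 in SF1I and between 3 and 5.4 elsewhere. Ddc, the decarboxylase of dopamine and serotonin synthesis, stood at 19.4 and 36.3 CPM in SF2I and SF3I, at 4.12 in SF1I and between 1.9 and 6.16 elsewhere. Cdhr1 is known from photoreceptors and olfactory bulb output neurons.

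To see which genes rose and fell together, 7 marker genes served as anchors. On build GRCm38, P2ry12 lies at chr3:59216272-59262871, Lgals3 at chr14:47367751-47386160, Top2a at chr11:98992943-99024189, Col1a1 at chr11:94936224-94953042, Cldn5 at chr16:18776847-18778262 and Rbfox3 at chr11:118489762-118911597, and Ttr was the last. By regression, each gene was given a slope on each anchor, its log2 change per doubling of the anchor. A gene is said to follow an anchor where edgeR's quasi-likelihood test gave an adjusted p under 0.05 over 17696 genes. All genes share the same 15 libraries, so lists that follow the same anchor are not independent of each other. With Ttr as anchor, 77 genes followed upward (0.435%) and 3 downward (0.017%). None of 17366 genes followed without SF1I, SF2I and SF3I (edgeR, 1324 at an unadjusted p under 0.05). The slope of Kl was then 0.38, that of Enpp2 0.13, that of Ddc 0.09 and that of F5 0.02, none of which passed. Of the choroid and ependyma list, 5 of 10 members followed Ttr upward: Folr1, Clic6, Kl, Otx2 and Prlr. Folr1 and Otx2 had enough counts to be tested only with SF1I, SF2I and SF3I included, and without these libraries 0 of 8 members followed. Ttr itself sets these 3 libraries apart, so slopes on it largely restate that split and are not separate support for it. The slope of Kl was 0.42 ± 0.04 (SE, n = 15, edgeR adjusted p = 3.6e-05). Outside the list, Enpp2, a lipid enzyme abundant in choroid plexus, had a slope of 0.21 ± 0.02 (edgeR adjusted p = 3.6e-05) and 514 to 579 CPM in the 3 libraries against at most 245. The clotting factor gene F5 had a slope of 0.27, Ddc 0.32, Cdhr1 0.34, Abca4 0.18, the secreted peroxidase gene Gpx3 0.17 and Cd200, which fell, -0.05. The water channel gene Aqp1 did not follow Ttr (slope 0.05, edgeR adjusted p = 0.645). It was 19.3 CPM in TM2I, a library with 0.32 CPM of Ttr, and 9.62, 15.9 and 22.7 in SF1I, SF2I and SF3I.

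Genes of surveying microglia had a median SD of 0.25 against 0.22 over all genes tested. Over genes at 1 CPM or more in at least 10 libraries of both sides, the list had 0.25 against 0.18 for all genes. In the contralateral punches these medians were 0.13 and 0.16. P2ry12, the ADP receptor that marks resting microglia, ran from 35.3 CPM in TM2I through a median of 52.9 to 77.5 in LM2I. Tmem119 ran from 47.7 to 103 CPM and the fractalkine receptor gene Cx3cr1 from 140 to 234, with the same 2 libraries at the ends. LM2I was the highest library for 11 of the 14 members of the list and TM2I the lowest for 10. With P2ry12 as anchor, edgeR called no gene upward (0%) or downward (0%); 1215 genes had an unadjusted p under 0.05, and DESeq2 called 29. EdgeR again called none of 17366 genes without SF1I, SF2I and SF3I, with 1181 at an unadjusted p under 0.05. The list did not move as a block with the macrophage anchor: 1 of 14 followed Lgals3 upward and 1 downward.

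Genes of infiltrating macrophages varied widely (median SD 0.74) and those of activated microglia and phagocytes less so (0.40). Members of each list varied together, with median correlations between members of 0.78 and 0.71. Lgals3 encodes galectin-3, a lectin that phagocytes make in quantity after injury. In batch B it stood at 102 CPM in LM2I, 49.9 in PF1I, 154 in PF2I, 99.8 in PM1I and 40.9 in PM2I. In batch C it ran from 47.3 in TF3I to 150 in SF3I, and the 15 values had a median of 99.8. The animals spread over a 3.77-fold range with both batches overlapping. With Lgals3 as anchor, 1421 genes followed upward (8.03%) and 818 downward (4.62%). Without SF1I, SF2I and SF3I, 528 of 17366 followed upward and 66 downward. Without PF1I and PM1I there were 1037 and 417.

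Of 15 further macrophage genes, 13 followed Lgals3 upward and none downward, with a median slope of 1.05 against -0.01 over all genes. Of these, 10 of 15 followed without SF1I, SF2I and SF3I and 12 of 15 without PF1I and PM1I. Arg1, the arginase of alternatively activated macrophages, ran from 15.1 CPM in PF1I through a median of 51.1 to 177 in SF3I, a range of 11.7-fold. Its slope was 1.51 ± 0.18 (SE, edgeR adjusted p = 0.000149). F13a1, the factor XIII subunit of monocytes, ran from 8.47 to 78.6 CPM with a slope of 1.26 ± 0.15 (edgeR adjusted p = 0.000107). Lyz2, the lysozyme of myeloid cells, ran from 168 to 973 CPM with a slope of 1.18. Ms4a7, a membrane gene of monocyte-derived macrophages, had a slope of 1.15, and the matrix glycoprotein gene Thbs1 one of 1.10. Ly6c2 and Plac8, genes of circulating monocytes, did not follow, with slopes of 0.35 and 0.18 (edgeR adjusted p = 0.216 and 0.464).

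Among genes at 2 log2 CPM or more, the largest upward slopes on Lgals3 belonged to genes on and off the lists. Pf4 ran from 2.59 CPM in PF1I to 64.6 in SF3I and had a slope of 1.89 ± 0.21 (edgeR adjusted p = 7.57e-05). F7, which encodes coagulation factor VII, had a slope of 1.44 ± 0.19 (edgeR adjusted p = 0.000254). Clec4d, a C-type lectin receptor of myeloid cells, had a slope of 1.35 ± 0.12. Cd36, a scavenger receptor for lipids, had one of 1.26 ± 0.07 (edgeR adjusted p = 1.9e-07), the lowest p of all genes tested. The slopes of Pf4, Arg1, Clec4d, F13a1, Cd36 and Gpnmb also passed without SF1I, SF2I and SF3I, at 1.70, 1.32, 1.34, 1.14, 1.26 and 1.21.

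Of the 18 genes of activated microglia and phagocytes, 14 followed Lgals3 upward and none downward. Without SF1I, SF2I and SF3I the upward count was 12, and without PF1I and PM1I 13. Gpnmb, a glycoprotein of lipid-laden phagocytes, ran from 69.4 CPM in TF3I through 176 to 401 in PF2I, with a slope of 1.22 ± 0.09 (edgeR adjusted p = 2.5e-06). Spp1, which encodes the secreted protein osteopontin, ran from 729 CPM in PF1I to 2850 in SF3I with a slope of 0.81. Apoe, the lipid carrier, ran from 966 to 3070 CPM with a slope of 0.74. Cd68, a lysosomal protein of phagocytes, had a slope of 0.70 and the lipid receptor gene Trem2 one of 0.48. Cst7, Axl, Cd9 and Csf1 did not pass, with slopes between 0.05 and 0.23. Of 10 genes around MHC class II, which presents antigen, 6 followed Lgals3 upward (5 without SF1I, SF2I and SF3I, 4 without PF1I and PM1I). Cd74, the class II chaperone, ran from 24.8 CPM in TF3I to 80.3 in SM1I, the library that was highest for 6 of the 10.

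Of the genes that fell as Lgals3 rose, those named here were chosen for the size of their slopes. Hmgcs1, an enzyme of cholesterol synthesis, had a slope of -0.48 ± 0.09 and Idi1, another enzyme of that route, one of -0.51 ± 0.08 (edgeR adjusted p = 0.0043 and 0.000749), and both passed without SF1I, SF2I and SF3I at -0.43 and -0.49. Idi1 ran from 14.3 CPM in SF3I to 36.5 in PM2I. Zdbf2, an imprinted gene, had a slope of -0.54 and the opioid receptor gene Oprd1 one of -0.52. Oprd1 did not pass without the 3 libraries (slope -0.40, edgeR adjusted p = 0.136).

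Genes of dividing cells were tightly linked. Top2a, the topoisomerase that untangles DNA in mitosis, stood at 110, 77.5, 133, 80.6 and 82.5 CPM in LM2I, PF1I, PF2I, PM1I and PM2I. In batch C it ran from 77.1 in TM2I to 155 in SF3I. Across the 20 members the median correlation between pairs of genes was 0.92 over the 15 libraries, with each gene centred within batch. SF3I was the highest library for 18 of 20 members. With Top2a as anchor, 2475 genes followed upward (14%) and 2609 downward (14.7%); without SF1I, SF2I and SF3I, 1184 and 899 of 17366 did.

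All 19 further members followed Top2a upward, and 18 did without SF1I, SF2I and SF3I. Rrm2, a subunit of the enzyme that makes DNA building blocks, ran from 30.1 CPM in TM1I through 47.6 to 79.7 in SF3I with a slope of 1.37 ± 0.10 (edgeR adjusted p = 1.65e-06). Ccnb1, the cyclin that drives entry into mitosis, ran from 16.5 to 40.6 CPM with a slope of 1.21 ± 0.10. Cdk1, its kinase partner, had a slope of 1.18 ± 0.10. Mki67, the gene of the proliferation antigen Ki-67, had a smaller one of 0.83 ± 0.14.

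The promoters of 3 of these genes are shown because members of the list moved together so closely. Each is the 250 bases before the RefSeq start of the gene (build GRCm38.p6), 5′ to 3′ on the gene's strand. Capitals mark CCAAT, the letters bound by the factor NF-Y, and TTTGAA, the core letters of the cell cycle homology region, each on either strand (ATTGG and TTCAAA on the other). The windows are Top2a at chr11:99024190-99024439 on the minus strand, Rrm2 at chr12:24708004-24708253 on the plus strand and Ccnb1 at chr13:100786487-100786736 on the minus strand.
Top2a: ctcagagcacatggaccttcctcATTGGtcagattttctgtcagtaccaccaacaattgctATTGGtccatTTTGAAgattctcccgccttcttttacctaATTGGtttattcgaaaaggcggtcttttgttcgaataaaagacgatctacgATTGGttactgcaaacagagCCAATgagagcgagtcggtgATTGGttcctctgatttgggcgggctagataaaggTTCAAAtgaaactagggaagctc
Rrm2: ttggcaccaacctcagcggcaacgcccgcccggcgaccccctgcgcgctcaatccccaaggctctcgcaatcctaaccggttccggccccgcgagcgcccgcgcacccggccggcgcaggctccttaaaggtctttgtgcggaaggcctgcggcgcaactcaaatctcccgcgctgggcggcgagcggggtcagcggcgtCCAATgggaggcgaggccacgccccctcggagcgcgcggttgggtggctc
Ccnb1: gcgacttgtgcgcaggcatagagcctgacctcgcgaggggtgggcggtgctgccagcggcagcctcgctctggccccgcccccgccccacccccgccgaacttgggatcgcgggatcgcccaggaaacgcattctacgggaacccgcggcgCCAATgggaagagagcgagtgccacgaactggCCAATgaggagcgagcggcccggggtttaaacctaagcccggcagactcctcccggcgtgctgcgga

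Top2a held 6 CCAAT and 2 TTTGAA matches, Rrm2 1 and 0, and Ccnb1 2 and 0. RefSeq windows were found for 17 of the 20 members, 18 windows in all. CCAAT was present in 16 of the 18 (88.9%), against 33.8% of 32851 windows of all genes. TTTGAA was present in 8 (44.4%) against 16%, and both in 44.4% against 5.55%. These are letter matches, not measured binding.

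Macrophage genes rose with Top2a as well. Of 16 macrophage genes 13 followed upward (9 without SF1I, SF2I and SF3I) and of 18 phagocyte genes 15 (14 without them). Siglec1, the sialic acid receptor of macrophages, ran from 7.42 CPM in TM2I to 35 in SF3I and had a slope of 2.24 ± 0.16 (edgeR adjusted p = 1.41e-06). Arg1 had a slope of 2.70, Pf4 one of 3.00 and Gpnmb one of 1.76. In the 9 neutrophil genes tested, 6 followed upward (2 of 7 without the 3 libraries). Mmp9, the gelatinase stored in neutrophil granules, had a slope of 1.66, which did not pass without them (1.38, edgeR adjusted p = 0.108). Of homeostatic microglia genes, 4 of 14 followed, among them Csf1r with a slope of 0.46, Fcrls with 0.55 and Sparc with 0.55. They numbered 4 without SF1I, SF2I and SF3I too.

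Neuron genes fell as Top2a rose. Of 18 neuron genes 16 followed Top2a downward, 11 without SF1I, SF2I and SF3I and 16 without PF1I and PM1I, with a median slope of -0.67 against -0.01 over all genes. Gad2, an enzyme of GABA synthesis in inhibitory neurons, ran from 69.8 CPM in SF3I to 179 in PM2I with a slope of -1.09 ± 0.16 (edgeR adjusted p = 0.000152). Stmn2, a growth-cone protein, ran from 227 to 497 CPM with a slope of -0.84 ± 0.12. Both also passed without the 3 libraries, at -0.99 and -0.81. Nefm, a neurofilament, had a slope of -0.71 that did not pass without them (-0.50, edgeR adjusted p = 0.0866). Camk2a and Neurod6 did not follow, at -0.24 and -0.40. Of 12 activity-dependent genes 5 followed Top2a downward, and 1 without SF1I, SF2I and SF3I. Npas4 had a slope of -4.29 and Fosb one of -4.01, and the synaptic pentraxin gene Nptx2, which is not on that list, had -2.59. None of these 3 genes passed without SF1I, SF2I and SF3I, at -2.86, -3.69 and -2.52.

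**Figure D3:**
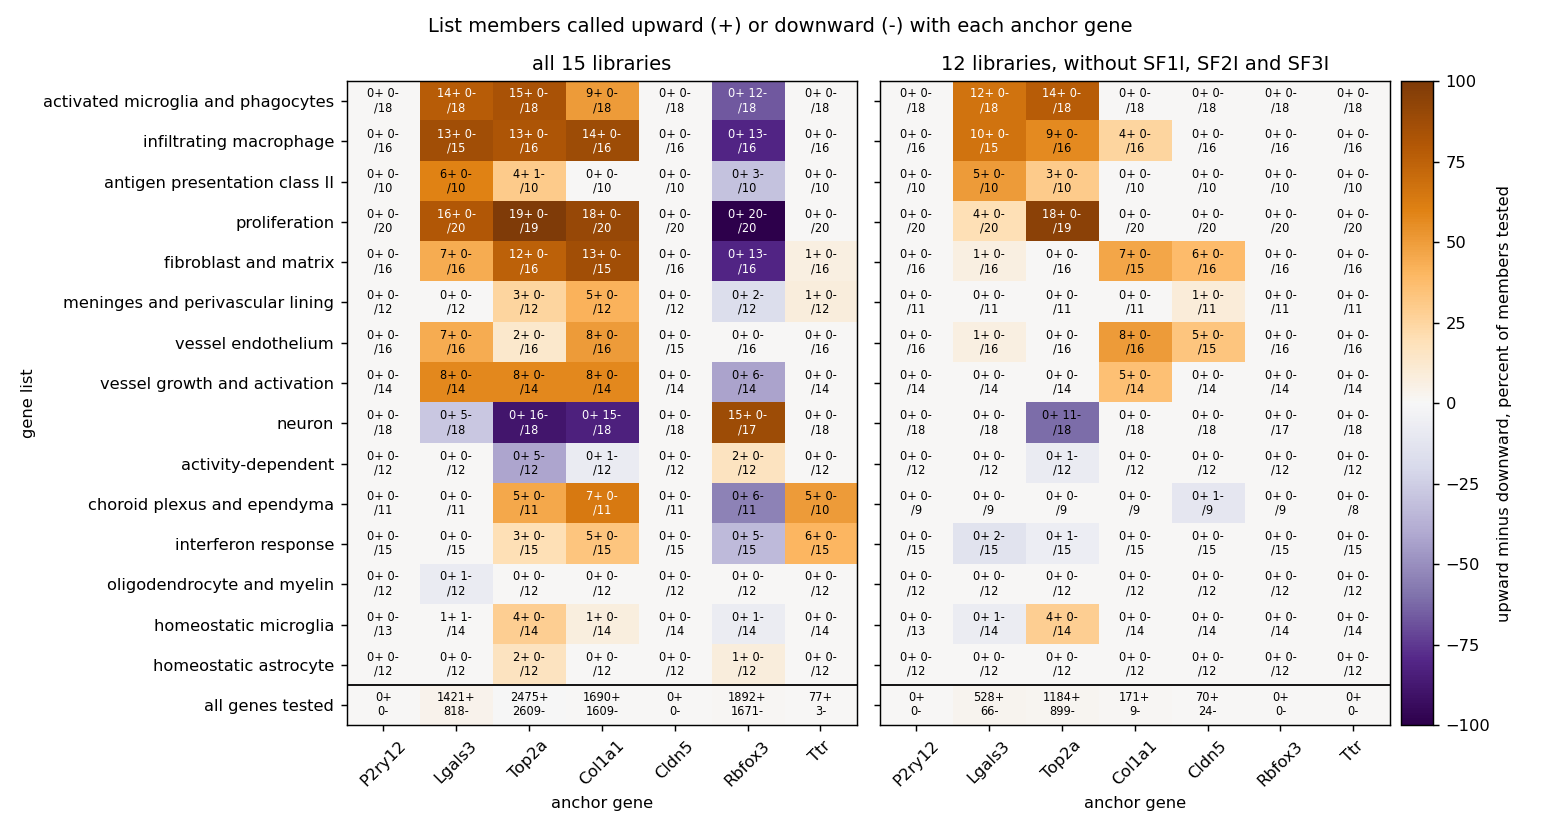
Members of 15 gene lists (rows) called upward (+) or downward (-) with each of 7 anchor genes (columns), in all 15 libraries (left) and without SF1I, SF2I and SF3I (right); colour is upward minus downward as a percent of members tested, and the bottom row counts all genes. Macrophage and phagocyte calls with Lgals3 and Top2a remain at 9 to 14 members on the right, while every call with Rbfox3 and Ttr goes to 0.

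Fibroblast genes covered a wide range. Col1a1, a chain of type I collagen, stood at 76.5 CPM in LM2I, 46.5 in PF1I, 74.7 in PF2I, 50.2 in PM1I and 42.5 in PM2I. In batch C it reached 311, 402 and 578 CPM in SF1I, SF2I and SF3I and lay between 44.3 and 189 in the other 7. The 3 libraries with choroid plexus RNA were therefore also the 3 highest in collagen. With Col1a1 as anchor, 1690 genes followed upward (9.55%) and 1609 downward (9.09%); without SF1I, SF2I and SF3I only 171 and 9 of 17366 did. Of 15 further fibroblast genes 13 followed upward, and 7 without the 3 libraries. Col1a2, the partner chain, ran from 45.4 CPM in PM2I to 560 in SF3I with a slope of 0.97 ± 0.04 (edgeR adjusted p = 7.19e-10). Col3a1, type III collagen of early scar, had a slope of 0.94 and Lox, the enzyme that crosslinks collagen, one of 1.00. These slopes were 0.87, 1.07 and 1.28 without the 3 libraries and passed there. Col6a1 and Pdgfra did not follow, at 0.14 and 0.05.

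Other slopes on Col1a1 did not pass without SF1I, SF2I and SF3I. Col8a1, a collagen of vessel walls, had a slope of 1.05 with them and 0.70 without (edgeR adjusted p = 0.0547). Cdhr1 had 1.18 with them and 0.07 without. Ttr had 2.33 with them and -1.17 without, the latter not past the threshold. Rgs4, a neuronal regulator of G-protein signalling, had -0.44 and -0.14, and Egr3, a firing-dependent factor, had -0.60 and -0.25. None of these 5 genes passed without the 3 libraries (edgeR). In the choroid list 7 of 11 members followed Col1a1 with all libraries and none of 9 without the 3 (edgeR). In the proliferation list the counts were 18 of 20 and 0, and in the neuron list 15 of 18 downward and 0.

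The endothelium list had a median SD of 0.25, against 0.22 over all genes tested. Over genes at 1 CPM or more in at least 10 libraries of both sides, these medians were 0.26 and 0.18. The list of vessel growth and activation had 0.43, with 5 of 14 members at 0.5 or more. Of these 14, 8 followed Lgals3, 8 followed Top2a and 8 followed Col1a1, all upward; without SF1I, SF2I and SF3I the counts were 0, 0 and 5 (edgeR). Cldn5, the claudin that seals brain endothelium, stood at 202 CPM in LM2I and between 98.3 and 168 in all others. With Cldn5 as anchor no gene was called upward (0%) or downward (0%) by edgeR, 1685 genes had an unadjusted p under 0.05, and DESeq2 called 55. Without SF1I, SF2I and SF3I, 70 of 17366 genes followed upward and 24 downward, with 5 of 15 endothelial and 6 of 16 fibroblast genes among the upward ones. The count depended on the anchor gene: with Pecam1 in place of Cldn5 and all libraries, edgeR called 1368 genes. Endothelial genes followed Col1a1 in 8 of 16 cases, and in 8 of 16 without the 3 libraries as well. Pecam1, the endothelial adhesion molecule CD31, ran from 63.3 CPM in SM2I to 145 in TF1I with a slope of 0.24 ± 0.06 (edgeR adjusted p = 0.0111), and of 0.53 without the 3. Cdh5, the cadherin of endothelial junctions, had a slope of 0.24 and of 0.52 without them. Of the 16 endothelial genes 7 followed Lgals3 upward, and 1 without the 3 libraries. Kdr and Tie1, receptors for vessel growth signals, followed Lgals3 with slopes of 0.33 and 0.37; Kdr did not pass without the 3 libraries (0.33, edgeR adjusted p = 0.104). The tip cell gene Esm1 was the most variable vessel gene, at 2.72, 3.76 and 7.35 CPM in SF1I, SF2I and SF3I and at most 1.95 elsewhere.

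Rbfox3, which encodes the neuronal nuclear protein NeuN, had the narrowest range of the anchors. It ran from 168 CPM in SF3I through a median of 241 to 274 in TF3I, a range of 1.63-fold. The 4 lowest values were those of SF3I, SM1I (192), SF1I (194) and SF2I (209). With Rbfox3 as anchor 1892 genes followed upward (10.7%) and 1671 downward (9.44%), but without SF1I, SF2I and SF3I edgeR called none of 17366 genes, with 1900 at an unadjusted p under 0.05. Of 17 further neuron genes 15 followed upward, all but Tubb3 and Neurod6. Downward, all 20 proliferation genes, 13 of 16 macrophage genes, 13 of 16 fibroblast genes and 12 of 18 phagocyte genes followed, and none of these without the 3 libraries. Among the steepest upward slopes were those of neuronal genes: Fosb 6.77 ± 2.08, Nptx2 4.40 ± 1.27, Egr3 3.73 ± 0.83 and Rgs4 2.61 ± 0.47. Among the downward ones were Ttr at -12.83 and Col1a1 at -4.17. Without the 3 libraries these 6 slopes were 6.35, 5.34, 3.97, 2.39, 2.94 and -1.87, none past the threshold; that of Ttr changed sign.

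Because the anchors themselves were few, their pairs were also compared directly. Of 21 pairs, 6 passed at an adjusted p under 0.05 by permuting libraries within batch, all among Lgals3, Top2a, Col1a1 and Rbfox3. Top2a and Rbfox3 had r = -0.81 and rho = -0.81 (permutation p = 0.0002, adjusted 0.0042), with r = -0.80 without the 2 libraries farthest from the median of the pair's first gene and -0.91 within batch C. Lgals3 and Top2a had r = 0.73 and rho = 0.61 (permutation p = 0.00454, adjusted 0.0191), and r = 0.69 and 0.70 in the same 2 subsets. The rank correlation of that pair had an adjusted permutation p of 0.0844. Col1a1 and Rbfox3 had r = -0.79 and rho = -0.80 (permutation p = 0.00411, adjusted 0.0191), with -0.65 and -0.82 in the subsets. Lgals3 and Col1a1 had r = 0.66 and rho = 0.66 (permutation p = 0.00357, adjusted 0.0191), with 0.65 and 0.73. Top2a and Col1a1 had r = 0.71 and rho = 0.73 (permutation p = 0.0042, adjusted 0.0191), with 0.64 and 0.73. Lgals3 and Rbfox3 had r = -0.62 and rho = -0.55 (permutation p = 0.00649, adjusted 0.0227), with -0.68 and -0.79; its rank correlation had an adjusted permutation p of 0.0844.

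Over the 15 animals, the anchors of macrophages, division and collagen thus rose together and the neuronal anchor fell with them. Without SF1I, SF2I and SF3I the r of the 6 pairs, in the order given, were -0.68, 0.67, -0.44, 0.69, 0.48 and -0.54, and 1 of 21 pairs passed. That pair was Col1a1 and Cldn5, whose r was 0.27 with all libraries (permutation p = 0.317) and 0.82 without the 3. Pairs with Ttr are not given, since its values form 2 separate groups.

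**Figure D4:**
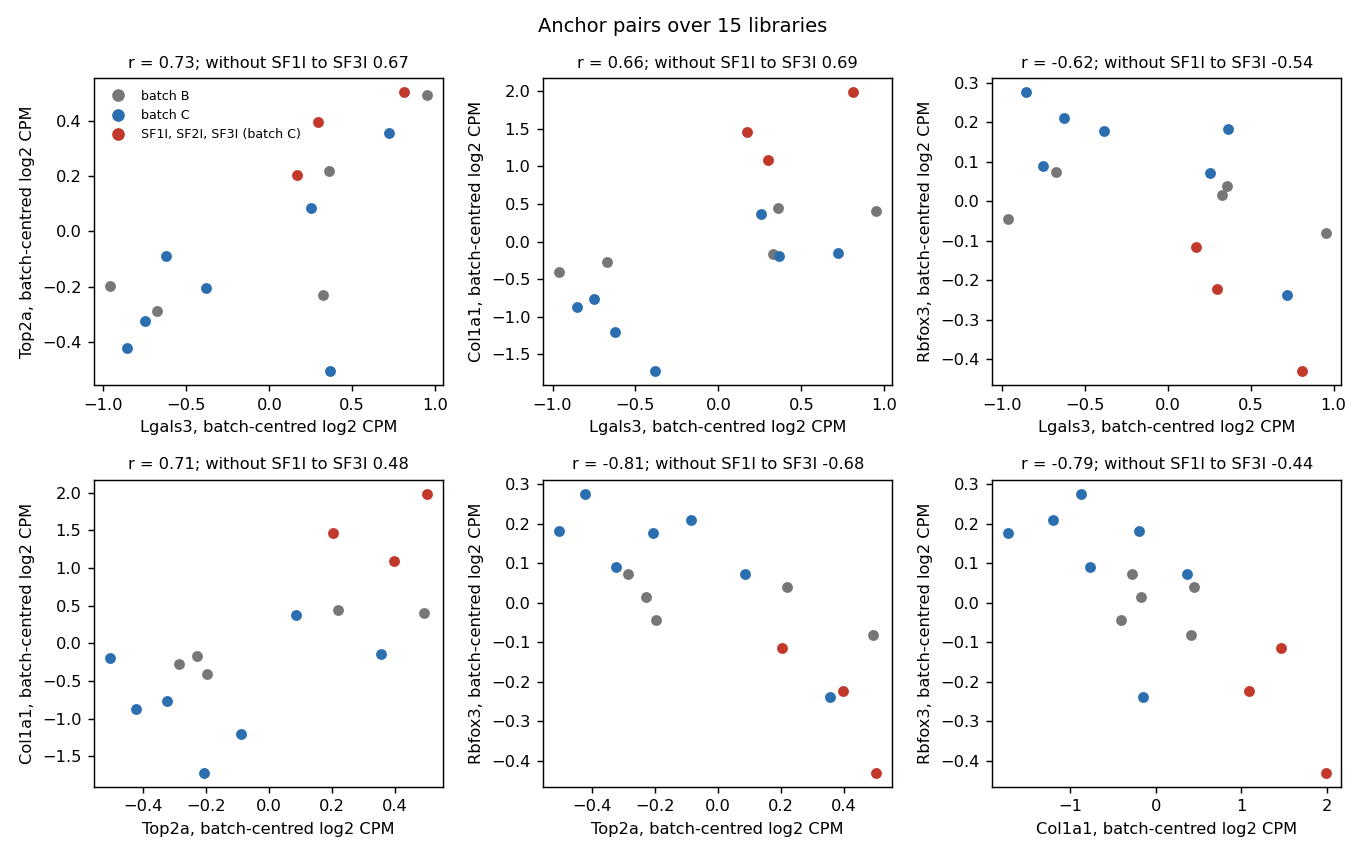
Batch-centred log2 CPM of the 6 anchor pairs past an adjusted p under 0.05; each point is 1 library, coloured by batch with SF1I, SF2I and SF3I in red, and each title gives r with and without those 3. The red points lie at the end of each cloud for Col1a1, and r moves from -0.79 to -0.44 for Col1a1 and Rbfox3 but only from 0.73 to 0.67 for Lgals3 and Top2a.

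Neither total counts nor the mitochondrial share gave a correlation with an anchor that passed. None of 14 did by permutation with adjustment over the 14. The strongest was Top2a with the mitochondrial share, at r = -0.52 and rho = -0.52 (permutation p = 0.0543, adjusted 0.513), with r = -0.65 without the 2 farthest libraries. An anchor's level in the injured punch was also compared with its level in the opposite hemisphere. None of 7 correlations passed; Cldn5 had r = 0.56 and rho = 0.43 (permutation p = 0.0264, adjusted 0.185), with r = 0.61 without the 2 farthest and 0.45 within batch C. Without animals PF1 and PM1 its r was 0.56, again not past the threshold (permutation p = 0.0538, adjusted 0.377).

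Activity-dependent genes formed a second source of spread, led by 2 males of batch C. Npas4 stood at 240 CPM in TM1I, 61.4 in SM2I and 13.9 in TM2I, and between 2.14 and 6.54 in all others. Fosb stood at 131 CPM in TM1I and 118 in TM2I, and between 4.32 and 33.3 elsewhere. Arc, which traffics receptors at active synapses, stood at 566 CPM in TM1I and between 38.4 and 177 elsewhere. TM1I was the highest library for 11 of the 12 genes of this list. Its contralateral punch was also high in Arc, at 905 CPM, against 418 in that of LM2 and 49.6 to 195 in the others. Fosb in the contralateral punches ranged only from 10.7 to 38.2 CPM, and those of TM1 and TM2 held 38.2 and 22.9.

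When the 300 most variable genes at 2 log2 CPM or more were clustered, a group of 76 held these genes together with Slc6a5, Gal, Crabp2, Fndc9 and Car12. Gal stood at 19.9 CPM in PM1I, 18.3 in PM2I, 14.1 in TM1I and 19.1 in TM2I and at most 5.81 elsewhere. Slc6a5 stood at 66.9 CPM in TM2I, 52.6 in PM1I and 30.5 in SF3I and between 2.29 and 8.89 elsewhere. In the contralateral punches Slc6a5 was at most 0.133 CPM, so every injured punch lay above every contralateral one for this gene. TM2I was among the 3 highest libraries for both Slc6a5 and Npas4, and the other 2 differed. A larger group of 137 genes held the choroid, collagen, macrophage and haemoglobin genes and was highest in SF3I, with a median of 1.17 log2 CPM above the batch mean.

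A further group, of 68 genes, held Fibcd1, Thbs4, Lrrc10b, C1ql2 and Prox1 and 1 of the 12 myelin list genes, Ermn. It was lowest in TM2I (-0.98), TF1I (-0.78) and PM1I (-0.66) and highest in PM2I (0.71). Fibcd1 ran from 2.41 CPM in TF2I through 25.5 to 48 in PM2I, and TF1I, TM2I, PM1I, SF3I and TF2I were the 5 libraries below 6 CPM. Thbs4 ran from 1.07 CPM in TF1I to 62.4 in PM2I. Prox1, a transcription factor of hippocampal granule cells, ran from 10.8 CPM in TM2I to 42.2 in SF1I. Prox1 is on the list of genes abundant in neighbouring regions, whose 14 members had a median SD of 0.47 but no common direction, with a median correlation between members of -0.01.

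Myelin genes moved as a block. Mbp, the basic protein of compact myelin, ran from 916 CPM in TM2I and 1090 in TF1I through a median of 2390 to 3150 in PM2I. TM2I was the lowest library for 11 of the 12 myelin genes and PM2I the highest for 12. The median correlation between members was 0.95. Few of them followed an anchor: 1 of 12 followed Lgals3, downward, and none followed Top2a, Col1a1, Rbfox3 or Ttr (edgeR).

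Smaller immune and blood lists had their own extreme animals. Haemoglobin genes, a sign of blood left in a perfused punch, were highest in TF1I for 4 of 5 genes. Hbb-bs ran from 34.7 CPM in PF1I to 229 in TF1I. The part of residual blood in the macrophage and neutrophil values was not tested; the red cell score was 1.44 in TF1I, 1.27 in TF3I and 0.92 in SF3I, and the macrophage score 0.48, -0.81 and 1.00. Neutrophil genes were highest in SF3I for 5 of 9 genes, and S100a9, an alarmin of neutrophils, ran from 0.523 CPM in SM2I to 11.8 in SF3I. Interferon-stimulated genes had a median SD of 0.45, with the highest score in SF1I (0.92) and 6 of 15 following Ttr upward, none without the 3 libraries. In CPM, which was not centred, PM2I of batch B was the highest library for 9 of the 15 and SF1I for 2. The score of PM2I was 0.31. Of 14 lymphocyte genes 2 had enough counts to be tested. The T-cell gene Cd3e gave 0 to 7 reads and the granzyme gene Gzmb 0 to 3 reads per library.

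Finally, the spread between injured punches was set against that of other punches. The absolute deviation of each gene from its batch mean was compared with limma, by animal for the contralateral punches and between libraries for 15 injured punches at 24 h. Against the contralateral side, 1014 of 14768 genes spread more widely (6.87%) and 16 more narrowly (0.108%). The median SD was 0.18 in injured and 0.16 in contralateral punches, and 61.17% of genes had the larger SD on the injured side. Without animals SF1, SF2 and SF3, 119 genes were wider and 1 narrower, and without PF1 and PM1 357 and 8. With deviations taken from the batch median in place of the mean only 12 genes passed, all wider, and of the neuron and phagocyte genes described next 0 of 18 and 1 of 15 did.

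Among lists with at least 5 members tested, those of neurons and phagocytes held the largest shares of wider genes. Of 18 neuron genes 10 were wider than in the contralateral punch (2 without SF1, SF2 and SF3, and 3 without PF1 and PM1), and of 15 phagocyte genes 7 (4 and 5). Ctsb, a lysosomal protease, had an SD of 0.36 against 0.05, a difference in deviation of 0.28 ± 0.04 (SE, limma adjusted p = 0.0045). Apoe had 0.59 against 0.16 (difference 0.41 ± 0.07, limma adjusted p = 0.00668). Stmn2 had 0.34 against 0.10 (limma adjusted p = 0.0211). Differences for Apoe, Ctsb, Stmn2 and the protease gene Ctsd (0.28) also passed without SF1, SF2 and SF3, whereas Gad2 (0.30), Trem2 (0.23) and the neurofilament gene Nefl (0.13) then had limma adjusted p of 0.0571, 0.055 and 0.373. The 8 largest differences among called genes at 2 log2 CPM or more were those of Fibcd1 (SD 1.65 against 0.36, difference 1.21 ± 0.15), Thbs4 (0.98), Pf4 (0.97), Kl (0.94), Fosb (0.90), Lrrc10b (0.83), Fndc9 (0.78) and the matrix gene Hmcn2 (0.75). Without SF1, SF2 and SF3, Fibcd1 and Thbs4 passed, whereas Kl (0.44) and Fosb (0.83) had limma adjusted p of 0.195 and 0.109. The clock gene Per1 was narrower, at an SD of 0.15 against 0.46, as was Nkx2-2, a factor of the oligodendrocyte lineage, at 0.19 against 0.43. Neither passed without the 3 animals (limma adjusted p = 0.0852 and 0.203). Of the genes of meninges 4 of 11 were wider, and of those of neighbouring regions 4 of 12. Homeostatic microglia, myelin and mural genes gave no call in either direction (limma).

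Against 24 h, 70 of 15097 genes spread more widely at 72 h (0.464%) and 7 more narrowly (0.0464%). Of 17 phagocyte genes 2 were wider and of 18 neuron genes 4 were (Gad1, Gad2, Nefl and Nefm). Apoe had an SD of 0.59 at 72 h and 0.10 at 24 h, a difference of 0.43 ± 0.07 (limma adjusted p = 0.00719). It was the 1 gene still wider without SF1I, SF2I and SF3I (difference 0.43, limma adjusted p = 0.0163). Ctsb (0.27), the lipase gene Lipa (0.28), the haem-degrading enzyme gene Hmox1 (0.37) and Gad2 (0.29) were also wider with all libraries. Without the 3 their differences were 0.28, 0.30, 0.34 and 0.22, with limma adjusted p of 0.0598, 0.0598, 0.155 and 0.112. The endothelial transporter gene Slco1a4 was narrower at 72 h, at an SD of 0.17 against 0.69. The 24 h punches came from batches A and B and from other animals, so batch and time are partly confounded. In batch B alone, limma called 0 of 14349 genes (1410 at an unadjusted p under 0.05). With deviations from the batch median it called 0 of 15097 (1218 at an unadjusted p under 0.05). In data simulated for the 72 h injured and contralateral libraries, 10.2% of the calls of an unpaired test were false, against 4.2% for the paired one. The comparison with 24 h was not itself simulated.

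**Figure D5:**
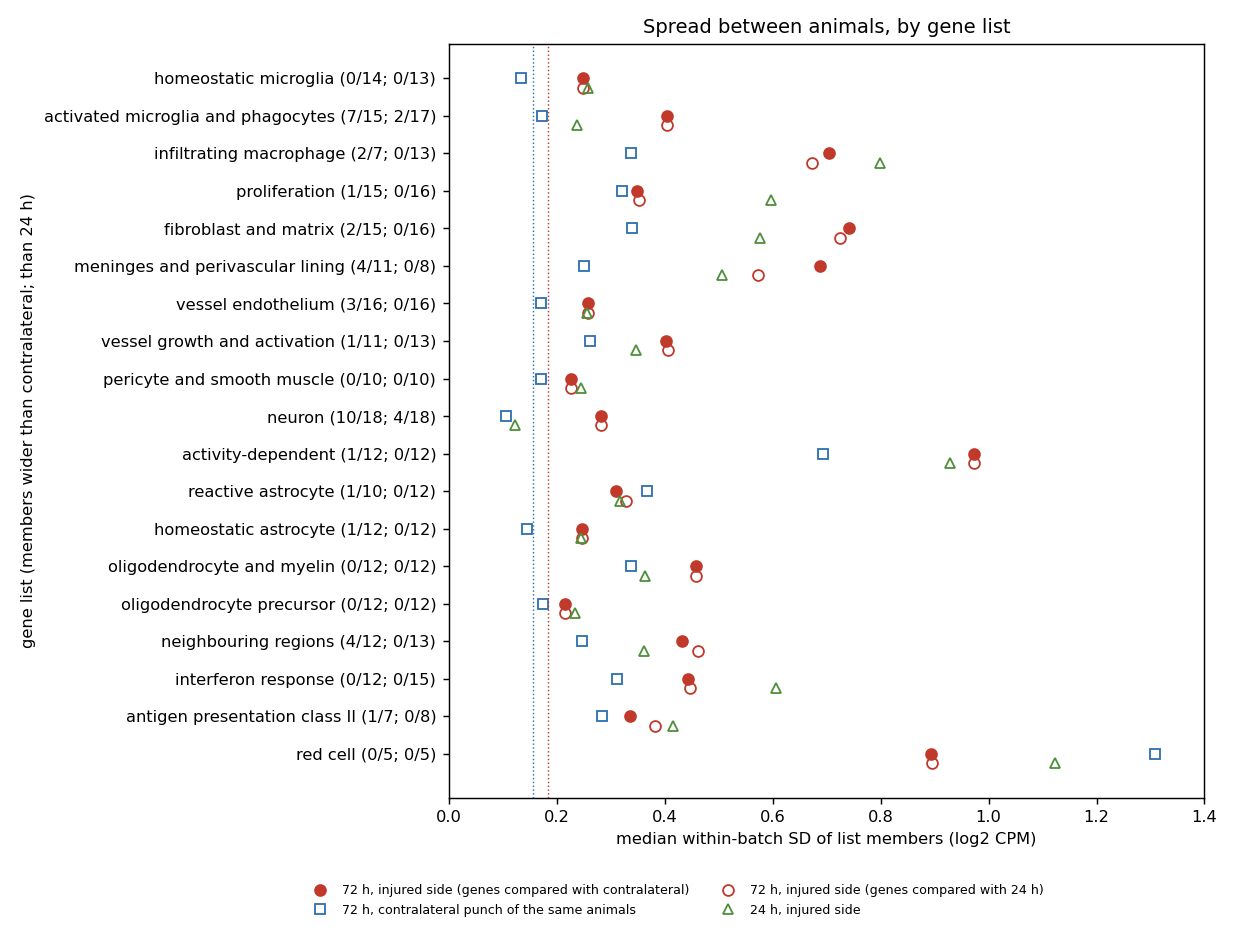
Median within-batch SD (log2 CPM) of the members of 19 gene lists in injured 72 h punches (red, filled for the genes compared with contralateral and open for those compared with 24 h), their contralateral punches (blue squares) and injured 24 h punches (green triangles); brackets give how many members were wider than contralateral and than 24 h, and dotted lines are the medians of all genes in the contralateral comparison. Neuron genes lie at 0.28 in injured 72 h punches against 0.11 contralaterally and 0.12 at 24 h. Proliferation genes lie at 0.35 against 0.60 at 24 h, but 0 of 16 were called narrower or wider than at 24 h (limma).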

How the data were processed

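The values are raw gene-level read counts in 1 table as deposited by the authors, made by them from reads; the submitters' processing notes name HISAT2 2.0.5 and mm10. Which program counted reads, which annotation release it used and whether it used strand is not given in the sources used here. Overlapping and antisense genes can therefore share reads. Counts without a gene symbol were at most 0.139% of a library. Libraries were grouped by the labels, and replicates are separate animals. LF3I was left out and was added back as an alternative.

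Counts were scaled by TMM (edgeR 4.0.16, R 4.3.3) after its filter on low counts, and log2 CPM used a prior count of 2. Slopes were fitted in edgeR's quasi-likelihood model with batch and the anchor's batch-centred log2 CPM as terms, with Benjamini-Hochberg adjustment. DESeq2 1.42.0 was an alternative. Spread was tested with limma 3.58.1 on absolute deviations from the batch mean, over genes at 1 CPM or more in at least 10 libraries of both sets. The contralateral fit held the animal as a block because the labels give both punches to 1 animal. PF1 and PM1, whose punches could not be taken as matched, were paired by label in this fit, and counts without them are given above. Anchor pairs were tested by 100000 permutations within batch (numpy 2.4.6). A list score is the median of its members' batch-centred log2 CPM. Slope and spread tests were tested on simulated data with known changes. Of 100 genes simulated with a slope of 0.5, 75 were recovered. The simulated anchor was drawn with an SD of 0.6 log2, against 0.20 for Rbfox3, so this recovery does not carry over to anchors of narrow range. The paired spread test recovered 30 of 100 genes given an added SD of 0.6, and 84 of 100 given 1.

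Named genes were the 7 anchors, the 20 genes of largest SD, up to 5 most variable members of each list, and up to 8 genes per direction of each comparison, all at a mean of at least 2 log2 CPM except list members. Other genes named were chosen after their values were seen. The members and the 23 gene lists were chosen with earlier results of these data known. Slope and spread tests are across animals, and none compares treatment groups.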

Additional observations from a re-analysis of the deposited data

Results flagged for a closer look

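Dixon's criterion at the 95% level was applied within each batch to the 7 anchor levels and to the 23 list scores, 60 groups of libraries in all. Chance alone gives about 1 in 20, and 4 were found. The Cldn5 level of LM2I was 202 CPM, above the next highest of batch B at 135 CPM. The Ttr level of PM1I was 1.2 CPM, below the next lowest of batch B at 5.96 CPM. The homeostatic microglia score of TM2I was -0.384 log2 CPM, below the next lowest of batch C at -0.0305. The pericyte and smooth muscle score of LM2I was 0.207 log2 CPM, above the next highest of batch B at -0.0192. LM2I was the highest library for 11 of 14 homeostatic microglia genes and TM2I the lowest for 10 of 14. The causes were not tested.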

How the results depend on the processing

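Counts are genes called in both directions unless said otherwise. Leaving out SF1I, SF2I and SF3I, an alternative chosen after seeing the data, gave 594 genes with Lgals3 (2239 with all), 2083 with Top2a (5084), 180 with Col1a1 (3299), 94 with Cldn5 (0), 0 with Rbfox3 (3563) and 0 with Ttr (80), 120 wider or narrower than the contralateral punch (1030), 1 than 24 h (77) and 1 anchor pair (6). It turned the slopes of Ttr on Col1a1 (-1.17) and on Rbfox3 (2.94) and those on Ttr of Cdhr1 (-0.0268), Abca4 (-0.0763) and Gpx3 (-0.0035). Leaving out PF1I and PM1I gave 1454 genes with Lgals3 and 365 against the contralateral punch. A sex term without those 2 gave 920 with Lgals3, 3199 with Top2a, 2338 with Rbfox3, 34 with Ttr and 2 pairs. Adding LF3I gave 476 with Col1a1, 4299 with Cldn5, 364 with Rbfox3, 21 with Ttr, 280 genes of SD 1 or more (43) and 3 pairs, and turned Zdbf2 on Lgals3 (0.029) and Pf4 on Top2a (-0.27). Batch C alone gave 2198 with Col1a1 and 3 pairs, and no value for Ttr. Other anchors gave 4433 (Ms4a7 for Lgals3), 1505 (Mki67 for Top2a), 2180 (Col3a1 for Col1a1), 1368 (Pecam1 for Cldn5) and 127 (Folr1 for Ttr). DESeq2 gave 29 with P2ry12, 55 with Cldn5 and 499 with Ttr. Without a count filter Cldn5 gave 1 and Ttr 221. Means of at least 0 and 4 log2 CPM gave 124 and 12 genes of SD 1 or more. Against 24 h, DESeq2 size factors gave 48, a minimum of 5 CPM 163, the batch median 0 and batch B alone 0; the batch median gave 12 against the contralateral punch. The causes were not tested.

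Without the replicate block, 1188 genes differed in spread from the contralateral punch. Leaving out each animal in turn gave 0 (most animals) to 1 (TF3) genes with P2ry12, 947 (SF3) to 3632 (TM2) with Lgals3, 3762 (SF3) to 5060 (PF2) with Top2a, 405 (SF3) to 3657 (TM2) with Col1a1, 0 to 2 (SF1) with Cldn5, 662 (SF3) to 4520 (LM2) with Rbfox3 and 16 (SF3) to 326 (SM1) with Ttr. It gave 551 (SF3) to 1655 (LM2) against the contralateral punch, 17 (PF2) to 210 (TF1) against 24 h, 33 (SF3) to 44 (LM2) genes of SD 1 or more, and 1 (PF2) to 8 (SM1) pairs. For 84 slopes and differences of named genes, 1679 of 1935 alternative values kept direction and threshold, 249 kept direction only and 7 turned, all given above. At these depths, choroid, neutrophil and lymphocyte genes near the filter are limited by counting error.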
